A study of Drosophila melanogaster with 8 samples.

Results

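The 9 genes described here encode Piwi and the nuclear proteins that work with it, chosen by their FlyBase symbols: piwi, arx, Panx, nxf2, mael, egg, wde, Su(var)2-10 and the gene of heterochromatin protein 1a (HP1a, FBgn0003607), called HP1a here. They were taken from the 15682 gene identifiers counted in the data. All 9 were found and all 9 passed the filter on low counts. RNA was sequenced from ovaries of Drosophila melanogaster aged 4 to 6 days, in 8 libraries that form 4 groups of 2. The piwi mutant carried the alleles piwi1 and piwi2, and its control carried the germline driver nos-GAL4-VP16, which the label of the mutant does not name. In the RnpS1 knockdown, the follicle cell driver tj-GAL4 expressed a double-stranded RNA against RnpS1 and nos-GAL4-VP16 expressed a short hairpin RNA against it. The control of the knockdown carried both drivers. What lesions the piwi alleles carry, or how many animals went into a library, is not given in the sources used here.

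Piwi is an Argonaute protein that small RNAs guide to nascent transposon transcripts in the nucleus of ovarian germ cells and of the follicle cells around them. Its partners turn that contact into repressive chromatin: Asterix binds Piwi, Panoramix and Nxf2 form a complex that silences the bound transcript, a SUMO ligase recruits the histone methyltransferase Eggless with its cofactor Windei, and the heterochromatin protein HP1a reads the mark. RnpS1 is an accessory factor of the exon junction complex, which is deposited on spliced transcripts and affects the splicing of neighbouring introns. The title of the study ties this complex to transposon control through the splicing of piwi. The counts per gene used here do not separate spliced from unspliced transcripts.

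Levels below are CPM, the counts of a gene scaled to the same total of gene counts in every library, with the mean ± SD of 2 libraries. Fold changes are on the log2 scale, from edgeR's quasi-likelihood test across 10434 genes with Benjamini-Hochberg adjustment, and a change was called at an adjusted p under 0.05. Gene counts per library lay between 37426999 and 86692865, and a single member drew from 1007 counts (arx) to 41201 counts (wde). Over all genes the spread between replicates exceeded counting error, but this need not hold for each pair of libraries of a member. Of 9 germline marker genes 8 were matched, and none of these was at 0 in any group. Their summed level was 3634 to 3849 CPM in the piwi mutant, 4598 to 4660 CPM in its control, 4440 to 4649 CPM in the knockdown and 4641 to 4759 CPM in its control. Within that list osk (1389 against 2035 CPM) and bcd were called lower in the mutant and bam was called higher (155 against 61.3 CPM, log2 fold change 1.19, adjusted p = 0.0436). In bulk RNA, fewer cells of a type and less RNA per cell cannot be told apart.

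Transcripts of RnpS1 itself, the target of the knockdown, stood at 8.75 and 3.78 CPM in the knockdown libraries and at 44.999 and 39.6 CPM in their controls. Both knockdown libraries lay far below both controls. RnpS1 fell by 2.88 on the log2 scale (SE 0.366, adjusted p = 0.0207). That call was lost without RnpS1 control replicate 1 (adjusted p = 0.0929) or replicate 2 (0.0680), and in a fit of the 4 libraries of the comparison alone (0.117). In the piwi mutant RnpS1 was at 49.97 and 41.0 CPM, against 41.7 and 35.9 CPM in the piwi control, and these ranges overlapped.

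The gene piwi (FBgn0004872, chromosome 2L) lost transcripts in both conditions, and it was the member with the largest fall in each. In the mutant it was at 202 and 193 CPM, against 316 and 312 CPM in the control. Both mutant libraries lay below both control libraries, and each pair lay close together. The mean of 198 ± 6.36 CPM was 62.9% of the control mean of 314 ± 2.95 CPM. The log2 fold change was −0.83 (95% interval −1.14 to −0.51, SE 0.133, adjusted p = 0.0185), and 4.69% of all genes tested had a lower value. Each of the 4 libraries was needed for the call, although the fold change barely moved (−0.84 to −0.80): leaving out a mutant library gave an adjusted p of 0.0894 (replicate 1) or 0.112 (replicate 2), and leaving out a control library gave 0.0676 or 0.103.

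In the RnpS1 knockdown piwi was at 189 and 156 CPM, against 414 and 337 CPM in the RnpS1 control. The lowest control library was well above the highest knockdown library, and the control libraries differed from each other by more than those of any other group. The mean of 173 ± 23.2 CPM was 45.9% of the control mean of 376 ± 54.6 CPM. The log2 fold change was −1.24 (95% interval −1.56 to −0.92, SE 0.134, adjusted p = 0.0149), and 2.49% of all genes tested had a lower value. The call was lost without RnpS1 control replicate 1, the library with the highest piwi level (log2 fold change −1.10, adjusted p = 0.0866), and in a fit of the 4 libraries of the comparison alone (adjusted p = 0.116). The change in the knockdown minus the change in the mutant was −0.41 (95% interval −0.85 to 0.03, adjusted p = 0.359), so a difference between these falls did not pass the test. Levels of piwi in the RnpS1 control and the piwi control, which did not overlap, differed by 0.24 (95% interval −0.08 to 0.55, adjusted p = 0.344).

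**Figure D1:**
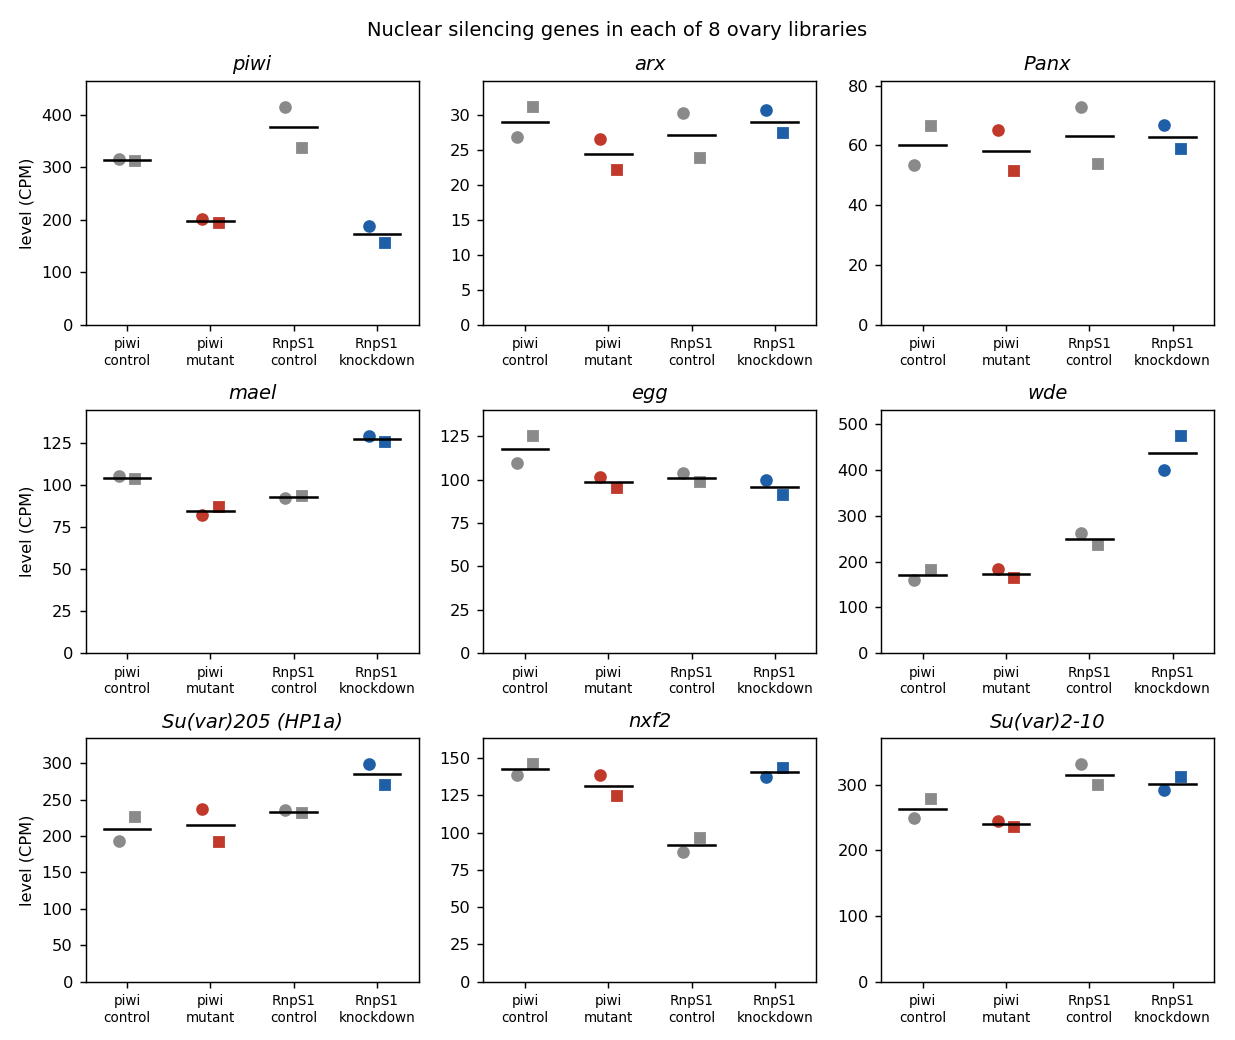
Level of each of the 9 genes in CPM of gene counts (vertical axis) in the 4 groups (horizontal axis), circles for replicate 1, squares for replicate 2 and bars for the mean of each group. The piwi libraries of the mutant and the knockdown all lie at or below 202 CPM and those of the controls at or above 312 CPM, while arx and Panx overlap between knockdown and control.

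Asterix, encoded by arx (FBgn0036826, 3L), is a small zinc finger protein that binds Piwi directly. The gene arx was the least counted of the 9, at 26.7 and 22.2 CPM in the mutant and 26.9 and 31.2 CPM in its control. The mutant libraries lay below the controls, by a narrow margin. The log2 fold change of −0.41 (95% interval −0.82 to 0.01, adjusted p = 0.162) did not pass. It did (0.0387) with the crossed pairing of replicates described in the closing section, which was chosen after seeing the data and so adds no support. In the knockdown arx was at 30.8 and 27.5 CPM, against 30.4 and 23.9 CPM, which overlapped. The log2 fold change there was −0.01 (95% interval −0.43 to 0.40, adjusted p = 0.982), and it was 0.10 with library totals in place of TMM factors.

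Panx (FBgn0034617, 2R) and nxf2 (FBgn0036640, 3L) encode partners in the complex that silences a transcript once Piwi has found it. Panx has no intron in the annotation used here (Ensembl, BDGP6). It was at 65.1 and 51.3 CPM in the mutant and 53.5 and 66.6 CPM in its control. In the knockdown it was at 67.0 and 58.9 CPM, against 72.8 and 53.8 CPM. Panx overlapped its control in both comparisons, with log2 fold changes of −0.20 (95% interval −0.65 to 0.24, adjusted p = 0.490) in the mutant and −0.12 (95% interval −0.57 to 0.32, adjusted p = 0.789) in the knockdown.

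The gene nxf2 was set apart by its level in the RnpS1 control. It was at 139 and 125 CPM in the mutant, at 139 and 146 CPM in the piwi control and at 138 and 143 CPM in the knockdown, but at 86.9 and 96.3 CPM in the RnpS1 control. The RnpS1 control thus lay below every other library, and the mutant, the knockdown and the piwi control lay close together. Against the piwi control, nxf2 was lower in the RnpS1 control by a log2 fold change of −0.66 (95% interval −0.89 to −0.43, SE 0.0981, adjusted p = 0.0218), the call among the 9 members in that comparison. Of all genes 2.15% were called lower there and 3.85% in either direction. CPM ranges of the RnpS1 control lay wholly below the piwi control for 3 members (nxf2, mael and egg) and wholly above it for 4 (piwi, wde, HP1a and Su(var)2-10), where 22.7% and 25.5% of all genes did so. The call was lost without either library of the piwi mutant (0.0598 and 0.0540), the piwi control (0.107 and 0.116) or the RnpS1 control (0.120 and 0.0699), and in a fit of the control libraries alone (0.0586).

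Within its own comparison nxf2 was higher in both knockdown libraries than in both controls, with a log2 fold change of 0.50 (95% interval 0.27 to 0.73) that did not pass in edgeR (adjusted p = 0.0608). It passed in DESeq2 (0.000372) and with library totals in place of TMM factors (0.0394). Because the control stood apart from the other groups, a higher level in the knockdown and a lower level in its control cannot be told apart. In the mutant the log2 fold change of nxf2 was −0.27 (95% interval −0.51 to −0.04, adjusted p = 0.106). In the later BDGP6 annotation, 630 of its 2917 exon bases (21.6%) overlap an annotated copy of a telomeric transposon on the same strand. Reads from that element could be left out as aligned to several places or as ambiguous, or be counted as nxf2. The part of that overlap in these values was not tested.

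Maelstrom, encoded by mael (FBgn0016034, 3L), is needed for silencing at or after the step of histone methylation. It was at 81.8 and 87.0 CPM in the mutant, against 105 and 103 CPM in its control. In the knockdown it was at 129 and 125 CPM, against 92.5 and 93.6 CPM. The members of each pair lay close together, below the control in the mutant and above the control in the knockdown. In the mutant mael fell by 0.46 on the log2 scale (95% interval −0.65 to −0.28, SE 0.0792, adjusted p = 0.0207). The call was lost without any 1 of the 4 libraries of the comparison (mutant replicates 0.138 and 0.111, control replicates 0.0826 and 0.110) and with library totals (0.0573).

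The higher level of mael in the knockdown, with a log2 fold change of 0.34 (95% interval 0.15 to 0.52), did not pass in edgeR (adjusted p = 0.0896) and passed in DESeq2 (0.00546) and with library totals (0.0476). The test of the difference itself, the change in the knockdown minus the change in the mutant, gave 0.80 (95% interval 0.54 to 1.06, SE 0.112, adjusted p = 0.0380). In edgeR mael was the 1 member that passed that test, against 0.288% of all genes called in that direction, 0.364% in the other and 0.652% in either. The difference was above 0 for 8 members and below 0 for piwi, where 49.5% of all genes were below 0. DESeq2 called 3 members there, mael, wde and nxf2. The difference of nxf2 was 0.78 (95% interval 0.45 to 1.10), with an adjusted p of 0.0710 in edgeR and 0.000155 in DESeq2. The call of mael was lost with a replicate block (0.0835) and without any 1 of the 8 libraries, at adjusted p-values from 0.0806 without knockdown replicate 1 to 0.220 without mutant replicate 1. In the annotation, 11.5% of the exon bases of mael lie opposite other genes on the other strand.

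Eggless, encoded by egg (FBgn0086908, 2R), is the methyltransferase that writes the repressive histone mark, and Windei, encoded by wde (FBgn0027499, 2R), is its cofactor. The gene egg was at 102 and 95.2 CPM in the mutant, against 110 and 125 CPM. Both mutant libraries lay below both controls. It fell by 0.41 on the log2 scale (95% interval −0.64 to −0.18, SE 0.0966, adjusted p = 0.0414). The call was the weakest of the members: it was lost with library totals (0.154), with no filter on low counts (0.0564), with a replicate block (0.0696), in a fit of the 4 libraries alone (0.0529), without any library of the comparison (mutant replicates 0.140 and 0.239, control replicates 0.0755 and 0.206) and without either library of the RnpS1 control (0.0589 and 0.0713). In the knockdown egg was at 99.8 and 91.4 CPM, against 104 and 98.6 CPM, overlapping ranges with a log2 fold change of −0.20 (95% interval −0.42 to 0.03, adjusted p = 0.334). The mutant libraries overlapped those of the RnpS1 control, which lay below the piwi control (log2 fold change −0.24, 95% interval −0.46 to −0.01, adjusted p = 0.219). A fall of egg in the mutant and a higher level in the piwi control cannot be told apart. An antisense RNA gene lies opposite 16.0% of the exon bases of egg.

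Unlike egg, wde was high in the knockdown. It was at 401 and 475 CPM there, against 262 and 237 CPM in the RnpS1 control. Both knockdown libraries lay above all other libraries, and the RnpS1 control in turn lay above the mutant (184 and 164 CPM) and the piwi control (160 and 181 CPM), which overlapped. The knockdown mean was 176% of the control mean. The log2 fold change of 0.70 (95% interval 0.39 to 1.01, SE 0.132) missed the threshold in edgeR (adjusted p = 0.0564) and passed it in DESeq2 (1.5e-05), with library totals (0.0394) and with no filter on low counts (0.0482). In the mutant the log2 fold change of wde was −0.13 (95% interval −0.44 to 0.18, adjusted p = 0.535), and it turned to 0.030 with library totals. The difference between these changes was 0.83 (95% interval 0.39 to 1.27, adjusted p = 0.117 in edgeR and 0.00108 in DESeq2). Between the controls wde differed by 0.53 (95% interval 0.22 to 0.84, adjusted p = 0.0769), and by DESeq2 that difference passed (0.00144).

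HP1a (FBgn0003607, 2L) encodes the heterochromatin protein that binds the methylated histone, and Su(var)2-10 (FBgn0003612, 2R) encodes a SUMO ligase that links Piwi and Panoramix to the methyltransferase. HP1a was at 238 and 192 CPM in the mutant, against 192 and 226 CPM, and these overlapped. In the knockdown it was at 299 and 271 CPM, against 235 and 232 CPM, with both knockdown libraries above both controls. Its log2 fold changes were −0.12 in the mutant (95% interval −0.43 to 0.19, adjusted p = 0.558; 0.037 with library totals) and 0.17 in the knockdown (95% interval −0.14 to 0.48, adjusted p = 0.559), and neither passed. Su(var)2-10 was at 245 and 235 CPM in the mutant, just below its controls at 249 and 277 CPM. In the knockdown it was at 292 and 311 CPM, within the range of its controls at 331 and 299 CPM or just below. Its log2 fold changes were −0.29 (95% interval −0.54 to −0.04, adjusted p = 0.110) in the mutant, which passed in DESeq2 (0.0352), and −0.18 (95% interval −0.43 to 0.07, adjusted p = 0.427) in the knockdown.

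Counted together, 3 of the 9 members fell in the piwi mutant (piwi, mael and egg) and none rose, where 5.06% of all genes were called lower and 6.37% higher. That count, and the signs and median below, include piwi, the gene mutated in this group. At an unadjusted p under 0.05, 5 were lower and 0 higher, and DESeq2 called 4 lower and 0 higher. All 9 had a negative log2 fold change, with a median of −0.29, against 49.2% of all genes below 0 and a median of 0.01. Lower values were not particular to the members: 7 of the 8 germline marker genes were negative, with a median of −0.35. Of the 32 other pathway genes described below, 24 were negative and 8 positive, with a median of −0.25. The signs of wde and HP1a turn with library totals, which move the median of all genes to 0.17 and that of the members to −0.13. CPM ranges of 6 members lay wholly below the control (piwi, arx, mael, egg, nxf2 and Su(var)2-10) and of none above, where 18.5% and 45.6% of all genes did so.

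In the RnpS1 knockdown 1 of the 9 members, piwi, fell and none rose in edgeR, where 0.738% of all genes were called lower, 0.882% higher and 1.62% in either direction. At an unadjusted p under 0.05, 1 was lower and 3 were higher. The median of the members was −0.01, with 4 values above 0 and 5 below, where 48.8% of all genes lay below 0, against a median of 0.01 over all genes, which moved to 0.12 with library totals. The CPM range of 1 member, piwi, lay wholly below the control, where 11.4% of all genes did so. Those of mael, wde, HP1a and nxf2 lay wholly above it, where 34.2% did so. DESeq2 and library totals each called 4 members there, piwi lower and mael, wde and nxf2 higher.

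**Figure D2:**
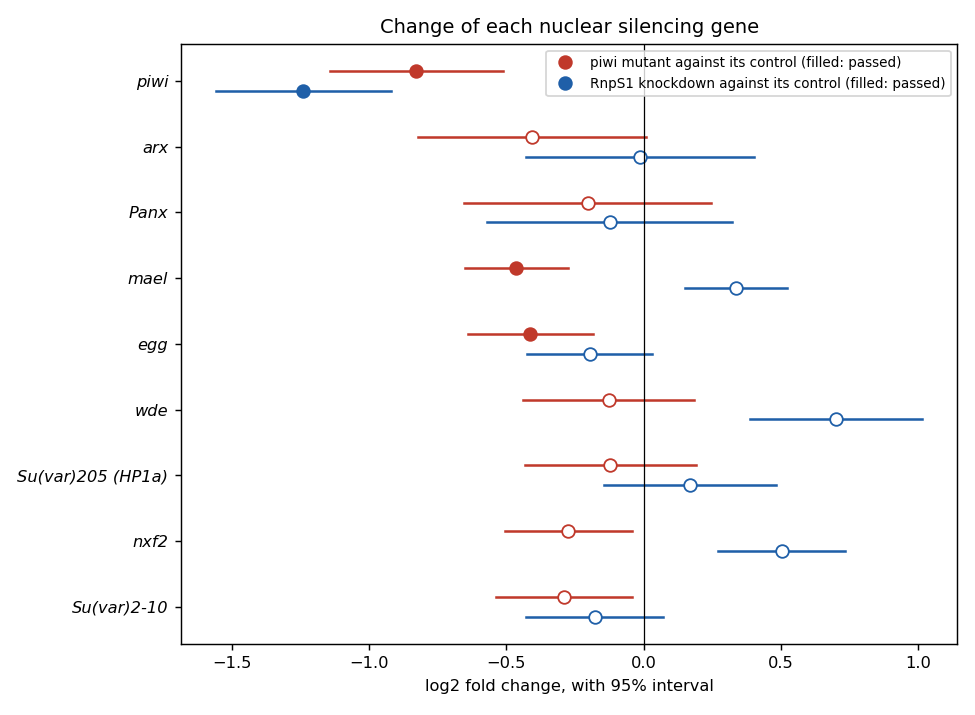
Log2 fold change of each of the 9 genes (horizontal axis) with its 95% interval, red for the piwi mutant and blue for the RnpS1 knockdown, each against its own control; filled points passed edgeR's test. The gene piwi is lowest in both comparisons, at −0.83 and −1.24, and mael lies on opposite sides of 0, at −0.46 and 0.34.

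Summed levels of some marker lists differed between the mutant and its control. The summed level of 11 eggshell genes of late follicle cells was 782 to 2062 CPM in the mutant and 8266 to 11145 CPM in its control. The summed level of 7 muscle genes was 1001 to 2071 CPM in the mutant against 113 to 324 CPM, and that of 5 fat body genes was 351 to 983 CPM against 55.0 to 70.9 CPM. None of these genes was at 0 in any group. In edgeR 1 of the 11 eggshell genes was called lower, 0 of the 7 muscle genes were called and 3 of the 5 fat body genes were called higher, where 5.06% of all genes were called lower and 6.37% higher. At an unadjusted p under 0.05, 7 eggshell genes were lower, and 4 muscle and 4 fat body genes were higher. DESeq2 called 6, 2 and 4 of them. Of 4 haemocyte genes Hml and NimC1 were called higher, and Col4a1 (−0.30, adjusted p = 0.816) and vkg (−0.38, adjusted p = 0.764) were not. The summed level of the 4 was 324 to 454 CPM against 163 to 421 CPM, which overlapped. Of 3 testis genes can and mia were called higher, at a summed level of 6.34 to 9.25 CPM against 1.63 to 2.03 CPM. The 4 gut genes overlapped, at 0.386 to 19.1 CPM against 0.529 to 0.534 CPM. In the knockdown the ranges overlapped those of the control for the eggshell (4094 to 14756 against 9904 to 21876 CPM), muscle (157 to 610 against 66.5 to 626 CPM) and fat body lists (105 to 126 against 84.8 to 145 CPM). The summed level of the 6 follicle cell genes was 191 to 200 CPM in the mutant and 121 to 196 CPM in its control. In the knockdown it was 162 to 169 CPM, against 138 to 174 CPM. These sums join opposite signs: each comparison held 2 positive and 4 negative log2 fold changes, with 0 called in edgeR. Mean Fas3 was 106 against 45.5 CPM in the mutant and 96.8 against 37.7 CPM in the knockdown. Mean tj was 27.9 against 55.9 CPM and 30.1 against 55.9 CPM, and in the knockdown mean zfh1 was 29.8 against 52.2 CPM. DESeq2 called 1 of the 6 higher in the mutant, and 1 higher and 1 lower in the knockdown. The part of tissue makeup in the values of the 9 genes was not tested.

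Compared per kilobase of exon, HP1a held the highest level in every group, between 189 ± 21.6 CPM per kb in the piwi control and 257 ± 17.9 CPM per kb in the knockdown. The gene piwi was next in the piwi control (102 ± 0.960 CPM per kb), the RnpS1 control (122 ± 17.8 CPM per kb) and the mutant (64.3 ± 2.07 CPM per kb). In those groups its range overlapped neither that of HP1a above it nor that of Su(var)2-10 below it. In the knockdown piwi was at 56.1 ± 7.55 CPM per kb, below wde, Su(var)2-10 and mael. Its range there overlapped those of Su(var)2-10 (59.8 ± 2.75 CPM per kb) and mael (59.2 ± 1.26 CPM per kb). By contrast wde stood at 90.2 ± 10.8 CPM per kb and overlapped neither neighbour. The gene egg had the lowest mean in all 4 groups, between 24.3 ± 1.51 CPM per kb in the knockdown and 29.8 ± 2.84 CPM per kb in the piwi control. The range of egg overlapped those of arx and Panx in the mutant and in the piwi control. Both arx and Panx lay among the last 4 in each group, at 27.4 to 32.7 CPM per kb.

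The share of piwi among the summed CPM of the 9 genes was 23.4% and 21.2% in the piwi control and 25.4% and 22.9% in the RnpS1 control. In the mutant it was 15.8% and 16.6%, and in the knockdown 11.5% and 9.41%. Every library of the mutant and the knockdown was thus below every control library. The other 8 genes together summed to 1081 and 972 CPM in the mutant, against 1036 and 1157 CPM, which overlapped. In the knockdown they summed to 1456 and 1504 CPM, above the 1214 and 1134 CPM of its control, and wde made up the largest part of that gap.

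**Figure D3:**
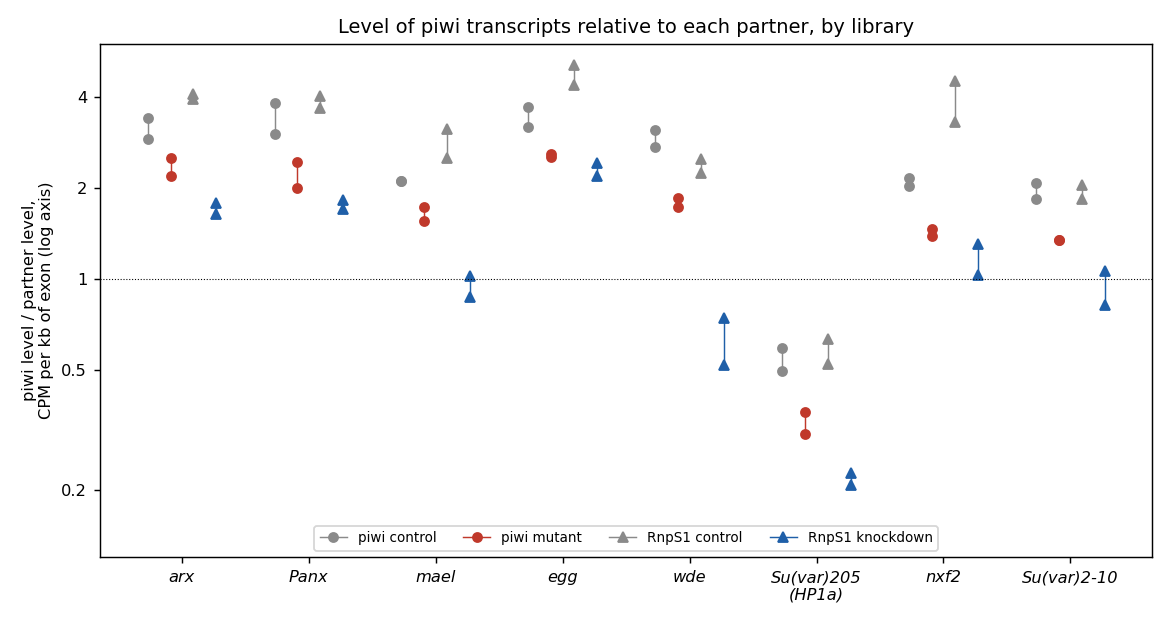
Level of piwi divided by the level of each partner in the same library, both in CPM per kb of exon (vertical log axis), for the 8 partners (horizontal axis), grey for controls, red for the mutant and blue for the knockdown; circles belong to the piwi comparison and triangles to the RnpS1 comparison, and a line joins the libraries of a group. For each partner both mutant and both knockdown libraries lie below their own controls.

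Relative to Panx, the level of piwi per kilobase was 3.82 and 3.03 times as high in the piwi control and 2.01 and 2.43 times in the mutant. It was 3.68 and 4.05 times in the RnpS1 control and 1.82 and 1.71 times in the knockdown. Relative to wde the ratio was 3.12 and 2.73 in the piwi control, 1.73 and 1.86 in the mutant, 2.50 and 2.25 in the RnpS1 control and 0.744 and 0.519 in the knockdown. The knockdown libraries were thus those in which piwi transcripts were less abundant per length than those of wde. The same held for HP1a in all 8 libraries.

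The members differ in their introns. In the BDGP6 annotation piwi has 8 exons and 7 introns, of which intron 1 spans 1120 bases and intron 4 spans 604 bases, and the other introns lie between 53 and 125 bases. The genes with an intron longer than the longest of piwi are wde (3012 bases) and Su(var)2-10 (1252 bases). The longest introns of the other members are 249 bases (HP1a), 220 bases (nxf2), 71 bases (egg), 68 bases (arx) and 62 bases (mael). In the knockdown the long-intron members piwi, wde and Su(var)2-10 had log2 fold changes of −1.24, 0.70 and −0.18. Among all 9962 genes tested with a structure in the annotation, 2728 had an intron at least as long as the longest of piwi. Their median log2 fold change in the knockdown was −0.01, against 0.01 over all 9962. Of the 2728 genes 37 fell (1.36%) and 21 rose, against 75 (0.753%) and 83 of the 9962, which include them. Of 5896 genes with shorter introns 32 fell (0.543%) and 53 rose, and of 1338 with no intron 6 fell (0.448%) and 9 rose. The part of intron length in these values was not tested. A value as low as that of piwi was found in 2.16% of the 2728 and in 2.39% of the 9962.

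Genes with a pattern like that of piwi were ranked by Pearson correlation of log2 CPM over the 8 libraries, which differ in depth. The closest of 10433 genes were TAF1B (0.983), which encodes a factor of RNA polymerase I transcription, mdy (0.979), which encodes an enzyme of triglyceride synthesis, Tomosyn (0.969), CG1774 (0.969) and PAN3 (0.968), which encodes a subunit of a poly(A) nuclease. Mean levels of TAF1B were 56.5 CPM in the mutant, 74.7 CPM in its control, 54.7 CPM in the knockdown and 79.4 CPM in its control. Of the members, egg was nearest to piwi (0.77, rank 561), followed by Su(var)2-10 (0.56), arx (0.51) and Panx (0.50). The values of mael (−0.02), HP1a (−0.08), wde (−0.31) and nxf2 (−0.41, rank 7503) were below 0. With 8 libraries in 4 groups these values describe the libraries and carry no test.

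Other genes of the pathway were grouped by role. Of 34 such genes 32 were matched and tested, and in the piwi mutant 6 fell and 1 rose, where 5.06% of all genes were called lower and 6.37% higher. Their median was −0.25 against 0.01 over all genes. Among 8 writers and readers of heterochromatin, 3 fell. Su(var)3-9, a histone methyltransferase of pericentric heterochromatin, was at 28.6 to 33.5 CPM in the mutant against 52.2 to 53.8 CPM (log2 fold change −0.93, SE 0.118, adjusted p = 0.0127), a larger log2 fall than that of any of the 9 members. Its call was lost without mutant replicate 1 (0.0546) or 2 (0.0749) or control replicate 2 (0.0838). The HP1a partner gene Su(var)3-7 had −0.67 (SE 0.118, adjusted p = 0.0214) and HP5 −0.74 (SE 0.161, adjusted p = 0.0353). Su(var)3-7 was at 195 to 223 CPM in the mutant and 277 to 317 CPM in the piwi control, but at 208 to 235 CPM in the RnpS1 control. A fall of Su(var)3-7 in the mutant and a higher level in the piwi control cannot be told apart.

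Among 6 co-repressor genes tested the histone deacetylase gene HDAC1 fell (−0.41, SE 0.0921, adjusted p = 0.0369). No SUMO machinery gene of 5, Panoramix complex gene of 2 or Argonaute gene of 4 passed in edgeR. Of the SUMO genes 2 were lower at an unadjusted p under 0.05 and in DESeq2, of the Argonaute genes 1 was higher by both, and of the Panoramix complex genes 0 by either. Of the 7 exon junction complex genes, Acn (−0.47, SE 0.103, adjusted p = 0.0360) and btz (−0.63, SE 0.156, adjusted p = 0.0458) fell and mago rose (0.48, SE 0.0773, adjusted p = 0.0191). The core subunit gene mago was at 108 and 108 CPM in the mutant and at 67.6 to 71.2 CPM in the piwi control, but also at 107 to 112 CPM in the RnpS1 control, which was higher than the piwi control by 0.64 (SE 0.0775, adjusted p = 0.0125). That call was lost without either library of the piwi control (0.0777 and 0.0584) or of the RnpS1 control (0.0639 and 0.0624). A rise of mago in the mutant and a drop in the piwi control cannot be told apart. The calls of Su(var)3-7, HP5, HDAC1, Acn, btz and mago in the mutant were each lost without any library of that comparison, at adjusted p-values from 0.0576 (Su(var)3-7 without control replicate 1) to 0.240 (btz without mutant replicate 2). Those of HP5, HDAC1, Acn and btz were also lost with library totals (0.0604, 0.123, 0.0918 and 0.0899) and without either library of the RnpS1 control (0.0504 to 0.0742). A replicate block ended the calls of HDAC1 (0.0644), Acn (0.0605) and btz (0.0741), no filter on low counts that of HDAC1 (0.0516) and DESeq2 size factors that of btz (0.0529).

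In the RnpS1 knockdown RnpS1, the target itself, was the gene of these 32 that passed in edgeR. At an unadjusted p under 0.05, 7 were lower and 1 higher, and DESeq2 called 4 lower and 0 higher. These counts, and the signs and median below, include RnpS1. Of all genes 0.738% were called lower. The median was −0.18 against 0.01 over all genes, and 28 of the 32 had negative values, where 48.8% of all genes did. Lower values were not particular to these genes: 7 of the 8 germline marker genes were negative, with a median of −0.17. Su(var)3-9 had −0.26 (SE 0.117, adjusted p = 0.302) and HDAC1 −0.29 (SE 0.0920, adjusted p = 0.170). Among the exon junction complex genes Acn had 0.29 (SE 0.102, adjusted p = 0.210) and mago −0.17 (SE 0.0770, adjusted p = 0.313).

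**Figure D4:**
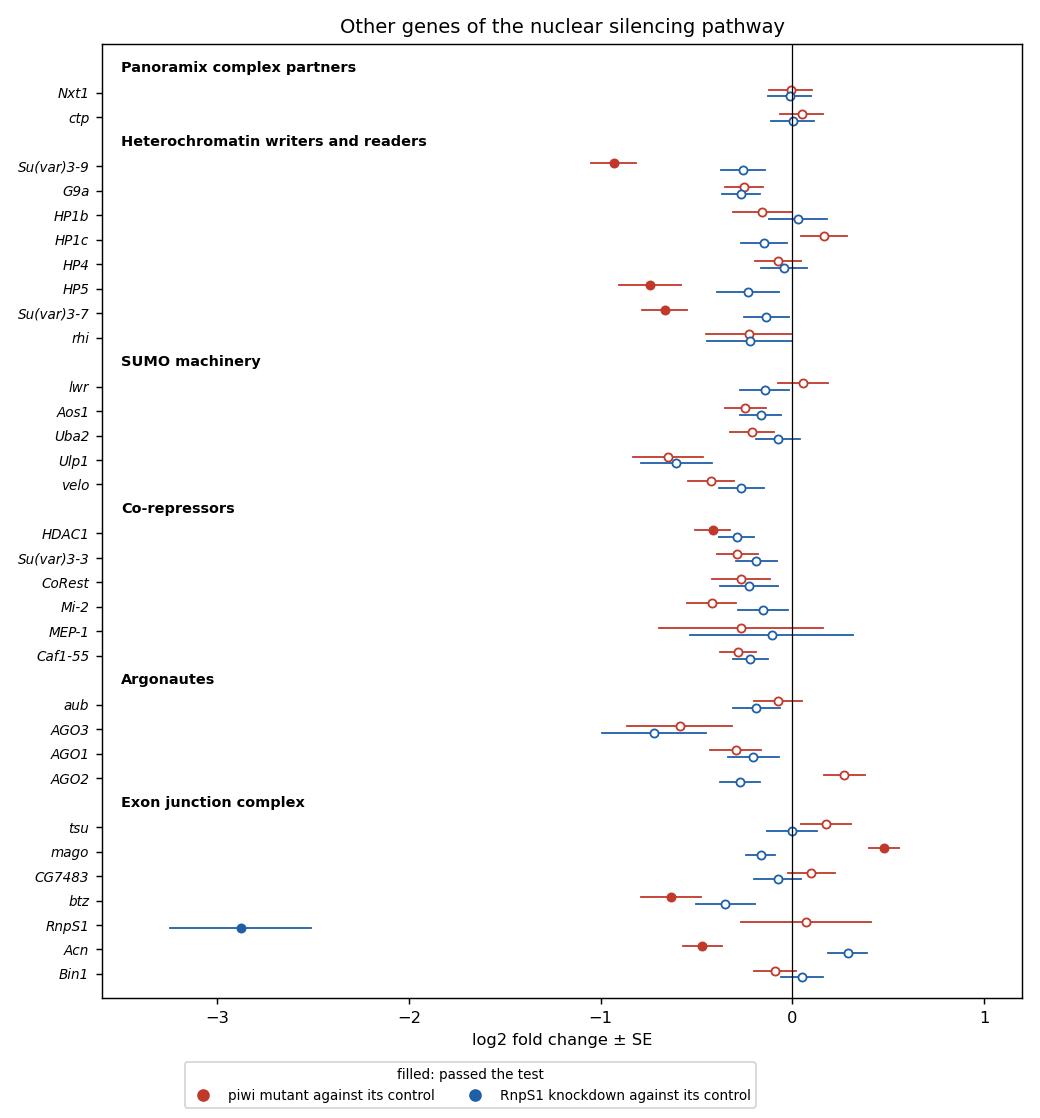
Log2 fold change ± SE (horizontal axis) of 32 further genes of the pathway, grouped by role, red for the piwi mutant and blue for the RnpS1 knockdown, each against its own control; filled points passed edgeR's test. In the mutant 6 genes lie to the left as filled points and mago to the right, and in the knockdown the filled point is RnpS1 at −2.88.

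The transposon families are what Piwi and its partners silence, and their counts were deposited beside the gene counts. Per 100 gene counts there were 12.1 and 10.7 family counts in the mutant and 0.880 and 0.574 in its control. In the knockdown there were 2.40 and 1.57, against 0.644 and 0.676. Both conditions thus lay above their controls. The level of piwi was 62.9% of the control CPM in the mutant and 45.9% in the knockdown. These percentages count transcripts, spliced or not, and do not measure working Piwi protein. How they relate to the family counts was not tested. Of 123 families 77 were higher (62.6%) and 2 lower (1.63%) in the mutant, and 22 were higher (17.9%) and 0 lower in the knockdown, by edgeR. In the knockdown DESeq2 called 23 higher and 0 lower, and at an unadjusted p under 0.05 there were 25 higher and 0 lower. Gene counts set the scale: when the families set their own scaling factors, 41 families rose and 48 fell in the mutant, and 21 rose and 5 fell in the knockdown.

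Of 8 families known for activity in follicle cells, all 8 rose in the mutant (median 3.96) and 2 in the knockdown (median 0.49). The retrovirus-like element gypsy was at 4466 and 5253 CPM of gene counts in the mutant against 406 and 211 CPM, and at 291 and 450 CPM in the knockdown against 300 and 509 CPM. Mutant libraries lay far above their controls, and knockdown libraries overlapped theirs. The log2 fold change of gypsy was 3.82 (SE 0.573, adjusted p = 3.5e-10) in the mutant and −0.24 (95% interval −1.24 to 0.77, adjusted p = 0.954) in the knockdown. ZAM was at 1358 and 1511 CPM in the mutant against 58.4 and 56.8 CPM, and at 58.8 and 63.5 CPM in the knockdown against 71.9 and 49.0 CPM, with a log2 fold change of −0.10 in the knockdown (95% interval −1.01 to 0.81, adjusted p = 0.976; 0.016 with library totals). The family gtwin was at 5261 and 4941 CPM in the mutant against 79.4 and 43.3 CPM, and at 43.3 and 51.0 CPM in the knockdown against 17.4 and 23.4 CPM, where 1.10 did not pass in edgeR (adjusted p = 0.177) and did in DESeq2 (0.0346).

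Of 10 families known for activity in the germline 9 were matched. Of these 7 rose in the mutant (median 3.30) and 4 in the knockdown (median 0.13). The family copia was at 32941 and 29845 CPM in the mutant against 274 and 204 CPM, and at 10941 and 3986 CPM in the knockdown against 803 and 737 CPM. Copia rose in the knockdown by 3.15 (SE 0.644, adjusted p = 1.8e-05), and the knockdown libraries differed from each other more than 2-fold. The telomeric element HeT-A was at 6860 and 5344 CPM in the mutant against 59.4 and 49.4 CPM, and at 100 and 214 CPM in the knockdown against 39.6 and 64.3 CPM. It rose in the knockdown by 1.49 (SE 0.525, adjusted p = 0.0282). That call was lost with a replicate block (0.0567), without either library of the mutant (0.103 and 0.102), the piwi control (0.0937 and 0.0904) or the RnpS1 control (0.433 and 0.0548), and without knockdown replicate 2 (log2 fold change 0.81, adjusted p = 0.483). The family blood was at 2607 and 2418 CPM in the mutant against 327 and 201 CPM, and at 541 and 575 CPM in the knockdown against 649 and 337 CPM, which overlapped.

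**Figure D5:**
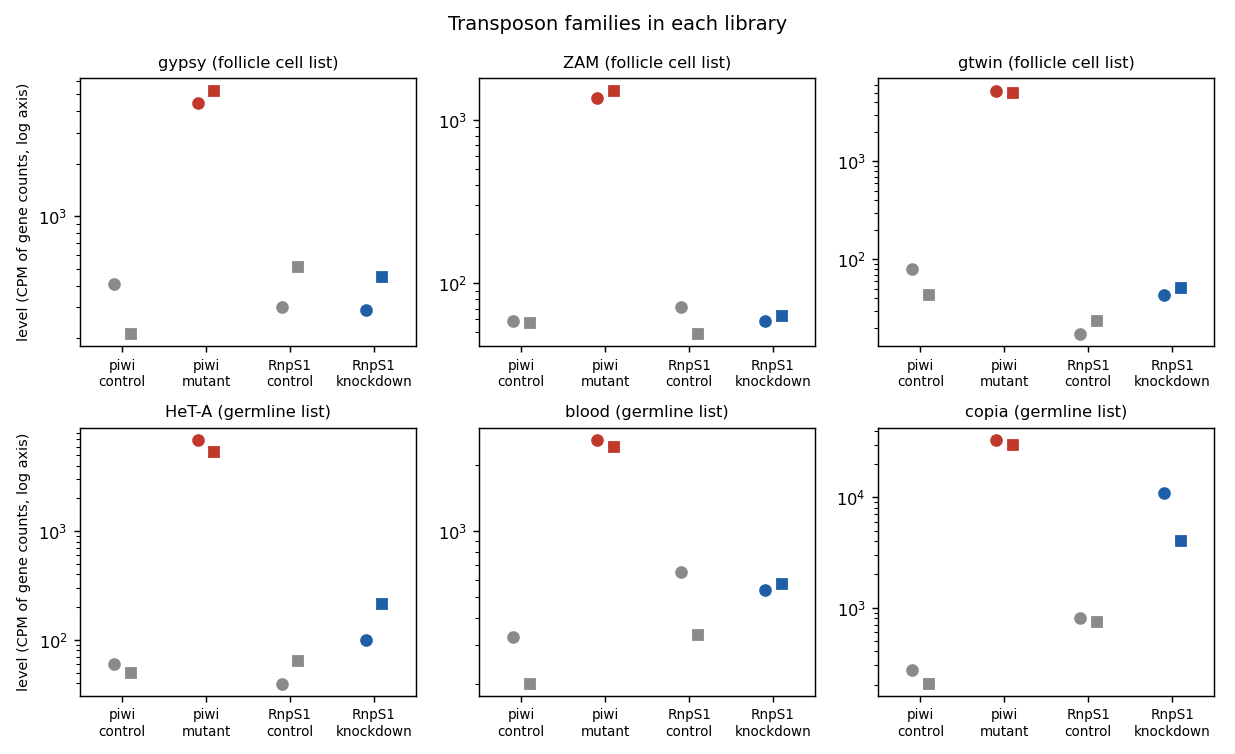
Level of 6 transposon families in CPM of gene counts (vertical log axis, scaled to each panel) in the 4 groups (horizontal axis), circles for replicate 1 and squares for replicate 2. All mutant libraries lie above all others in each panel, and in the knockdown copia lies above its control while gypsy, ZAM and blood overlap theirs.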

How the data were processed

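Per the labels' protocols, total RNA of dissected ovaries was depleted of ribosomal RNA and made into strand-specific libraries. The authors deposited raw read counts per gene and per transposon family for each library. The submitters' processing notes list dm3 and BDGP5 as builds. As tools they list DESeq, HTSeq 0.5.3p9, TopHat2 2.0.9 and CASAVA 1.8 or 1.8.2. Which aligner and reference gave the family counts, and whether gene counting used strand, is not given in the sources used here. Reads in no gene (1.91% to 10.7%) and of ambiguous assignment (1.19% to 1.63%) are given as shares of gene, no-gene and ambiguous counts together. Reads aligned to several places (43.2% to 66.0%) are a share of that total with these reads added. All of them stayed out of library sizes and tests, so reads of repeated sequence are missing from the gene counts.

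Counts were divided by the sum over gene identifiers to give CPM. The tests used edgeR 4.0.16 (R 4.3.3), quasi-likelihood, TMM factors and filterByExpr, in 1 fit over 8 libraries with a term per group (residual degrees of freedom 4, common dispersion 0.104). The contrasts were mutant against control, knockdown against control, the difference between these changes, and control against control. Families used library sizes and factors of the genes. Standard errors were derived from the F statistic. Fold changes use TMM factors and levels do not. The tests were tried on simulated counts with a smaller dispersion than that of these data, so the trial does not show how they perform here. An exact permutation test of 2 libraries against 2 cannot go below p = 0.333 and was not used. The labels do not say that replicates came from separate animals, so p-values measure the spread between these libraries, which may be technical. Over all genes, replicates differed by more than sampling noise (chi-square per degree of freedom 60.6 to 348).

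All 9 members and RnpS1 are named; of the other lists, genes past the threshold (at most 4 a list), the 3 families of each list with the largest mean CPM and the 5 genes closest to piwi. In the knockdown 4 further genes are given beside their mutant values. The follicle cell genes Fas3, tj and zfh1 are named although they did not pass in edgeR. Members and lists were chosen with earlier results of these data known. Of the identifiers 15002 had a symbol; the symbols smt3, sov, vas and wupA and a germline family were not matched. Names, chromosomes and structures come from a later release (Ensembl 115, BDGP6), so no coordinates are given. Alternatives (library totals or DESeq2 1.42.0 size factors, no filter, DESeq2's test, the 4 libraries of a comparison, a replicate block, each library left out) are in the closing section.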

Additional observations from a re-analysis of the deposited data

Results flagged for a closer look

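The change of mael in the RnpS1 knockdown minus its change in the piwi mutant, each against its own control, was 0.80 on the log2 scale (SE 0.112, edgeR's quasi-likelihood test of the difference itself, adjusted p = 0.0380). It drew attention because effects in the 2 conditions differed: all 4 libraries of the piwi comparison put mael lower in the mutant and all 4 of the other comparison put it higher in the knockdown. The comparisons share no control library, and both RnpS1 control libraries lay below both piwi control libraries. The difference between the controls was −0.18 (95% interval −0.37 to 0.003) and did not pass in edgeR (adjusted p = 0.239). The change of mael in the knockdown alone did not pass in edgeR either (adjusted p = 0.0896). A replicate block ended the call of the difference between the conditions (adjusted p = 0.0835). The call was lost without any 1 of the 8 libraries (adjusted p 0.0806 to 0.220).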

How the results depend on the processing

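Of 513 values of the 9 members under alternatives, 450 kept their direction and their side of the threshold, 37 lost a call, 12 gained one and 14 changed sign. These values include those of the crossed pairing described below, which was not planned. Leaving out a library decided most calls. Genes called then numbered 27 to 1138 in the mutant (1193 with all libraries), 0 to 139 in the knockdown (169), 12 to 41 for the difference (68) and 44 to 355 between the controls (402); members called numbered 0 to 3, 0 to 1, 0 to 0 and 0 to 1, and families called 51 to 98 in the mutant and 13 to 20 in the knockdown. The 0 genes called in the knockdown came from edgeR without RnpS1 control replicate 1, when 1547 genes had an unadjusted p under 0.05. Wherever 0 members were called, 2 to 4 members had an unadjusted p under 0.05. DESeq2's test called 2478, 1001, 789 and 1456 genes in the same order, with 4 members in the knockdown, 3 for the difference and 2 between the controls. No filter gave 254 genes and 2 members in the knockdown and 120 genes for the difference. The 4 libraries of a comparison alone gave 5 genes and 0 members in the knockdown, and 135 genes and 0 members between the controls. With library totals 1 member was called in the mutant and 4 in the knockdown, the split of genes was 814 higher and 200 lower in the mutant and 124 and 46 in the knockdown, and wde (0.030) and HP1a (0.037) in the mutant and arx (0.10) and ZAM (0.016) in the knockdown changed sign. With factors from the families blood had −0.23 in the knockdown. With a library left out, log2 fold changes that changed sign ranged from −0.26 to 0.018 (HP1a) and −0.057 to 0.21 (RnpS1) in the mutant. In the knockdown they ranged from −0.33 to 0.10 (Panx), −0.18 to 0.16 (arx), −0.61 to 0.19 (gypsy), −0.35 to 0.19 (ZAM) and −0.34 to 0.60 (blood). They ranged from −0.14 to 0.28 for the difference of Panx, and between the controls from −0.14 to 0.26 (Panx), −0.27 to 0.042 (arx) and −0.0055 to 0.23 (RnpS1). The cause of these shifts was not tested. Replicates share a number in the labels, and deviations of same-numbered libraries correlated at −0.18 (mutant and control) and 0.21 (knockdown and control). With that number as a replicate block, 659 genes were called in the mutant, 64 in the knockdown and 211 between the controls, and for the difference 0 members, against 4 at an unadjusted p under 0.05. A crossed pairing, with the numbers of the piwi control libraries exchanged and chosen after seeing the data, gave 2519 genes in the mutant and 1011 between the controls. The least counted member had 1007 counts in a library.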
